A study of Mus musculus with 12 samples.

Results

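The proteasome is the barrel-shaped protease that degrades ubiquitin-tagged proteins in the cytosol and nucleus, and its genes were followed here in mouse gastrocnemius after the sciatic nerve had been cut. The members were the rows of both deposited tables whose symbol is Psma, Psmb, Psmc, Psmd or Psme followed by a number, which gave 43 of 25094 listed genes. They comprised 8 Psma genes (the alpha rings of the core), 7 standard Psmb genes (the beta rings), 3 Psmb genes of the immunoproteasome (Psmb8, Psmb9 and Psmb10), the thymus-specific Psmb11, 6 Psmc genes (the ATPases), 14 Psmd genes and 4 Psme genes (activators). The Psmd genes were divided into 3 of the base, 8 of the lid and 3 assembly factors. Subunits with other names, such as Adrm1, are not members and are given with the other genes of the pathway.

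The muscle came from male, wild-type mice of 2 inbred strains, C57BL/6 and BALB/c, and poly(A) RNA was sequenced 2 weeks after surgery on the right leg. Each strain contributed 3 libraries of the right leg, whose sciatic nerve was cut with the ends turned back and sutured into muscle, and 3 of the left leg, called healthy in the labels. The protocol also describes a sham operation that exposes the nerve, but left legs are not labelled as sham or unoperated. Age is not labelled, nor whether libraries of 1 group are from different mice, so the p-values rest on the spread among these libraries alone, and that spread may be technical. The left leg served as the control within each strain. What the comparison of legs asks is how the muscle's gene expression changes when its nerve supply is lost, and the series concerns denervation and muscle function.

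In the proteasome core, inactive alpha rings gate a chamber formed by beta rings, and only Psmb5, Psmb6 and Psmb7 of the standard beta subunits carry active sites. The 19S cap binds the core: its ATPase ring unfolds substrates, its base holds ubiquitin receptors, and its lid removes ubiquitin through Psmd14. In cells exposed to interferon, Psmb8, Psmb9 and Psmb10 replace the standard active subunits, and other activators (Psme1 with Psme2, Psme3, Psme4) can take the place of the cap. In denervated muscle, fibres shrink as protein breakdown exceeds synthesis, and the ubiquitin-proteasome system is one of the degradation routes known to be engaged.

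Values are RPKM, that is reads corrected for transcript length and for the total of the library, so levels can be set against each other between genes per unit of length. The reads recovered behind a library's scale were 18132600 to 19282900, and a tested member held between 18 reads (Psmb9) and 13836 reads (Psmc3) in a library. Markers of muscle fibres summed to 70020 to 78145 RPKM in the C57BL/6 left libraries and 29934 to 36075 RPKM in the right ones, and to 59344 to 73626 and 25163 to 36457 RPKM in BALB/c. The list was mixed: in C57BL/6, Ckm, Acta1, Ttn and Myh4 were called lower and Des and Myh1 higher, and in BALB/c, Ckm, Ttn and Myh4 were called lower and Des higher. Beside the lower sum, the median tested gene stood 0.52 (C57BL/6, 14551 genes) and 0.38 (BALB/c, 14819 genes) log2 units higher on the right than on the left. Each member is therefore given as deposited and, where it changes the reading, after median-of-ratios rescaling, which divides each library by its median ratio to the average library and brings those medians to 0.01 in both strains. Erythroid markers summed to 7839 and 17434 RPKM in BALB/c right libraries 1 and 2 but to 144 to 1217 RPKM in the other BALB/c libraries, and to 97.03 to 207 RPKM in C57BL/6. Macrophage and monocyte markers were higher on the right for 15 of 15 genes in C57BL/6 (summed level 10.3 to 13.7 RPKM left, 95.1 to 189 RPKM right) and for 10 of 15 in BALB/c (64.6 to 109 RPKM and 192 to 308 RPKM). Markers of fibro-adipogenic progenitors and fibroblasts were called higher for 5 of 5 genes in C57BL/6 (summed level 63.6 to 115 RPKM left, 177 to 313 RPKM right), and in BALB/c for 2 of 5, with 1 lower (384 to 614 RPKM and 426 to 562 RPKM). Of all tested genes, 63.6% in C57BL/6 and 42.5% in BALB/c were called higher as deposited, and the BALB/c fibroblast count was near that share. The part of these cell types in the changes of the proteasome genes was not tested. In whole muscle, fewer cells of a type and less RNA per cell cannot be told apart.

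Nearly all proteasome genes were higher in the denervated leg, in both strains, and the rise was largest in the ATPases and the beta rings and smallest in the immunoproteasome and activator genes. Of the 41 members that passed the filter of a mean of 0.1 RPKM, 40 were called higher and 0 lower in C57BL/6, with a median change of 1.19 on the log2(RPKM + 0.5) scale, where 63.6% of all tested genes were called higher and 8.56% lower. In BALB/c, 40 of 41 were called higher and 0 lower, with a median change of 1.33, against 42.5% of all tested genes higher and 7.67% lower. Without BALB/c right library 1 or right library 2, the libraries high in erythroid markers, 38 and 39 members were called higher. Calls were made by limma at a Benjamini-Hochberg adjusted p under 0.05 over all tested genes. The exceptions were Psme4 in C57BL/6 and Psme1 in BALB/c, and 39 members were called higher in both strains. After rescaling, 27 members were called higher and 2 lower in C57BL/6 (28.2% and 26.6% of all tested genes), and 32 were called higher and 0 lower in BALB/c (21.8% and 19.2% of all tested genes); 27 were higher in both strains. All 3 right libraries lay above all 3 left libraries for 39 members in C57BL/6 and 40 in BALB/c, as they did for 66.2% and 48.1% of all tested genes; they lay below for 0 members in either strain, against 9.57% and 10.4%.

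**Figure D1:**
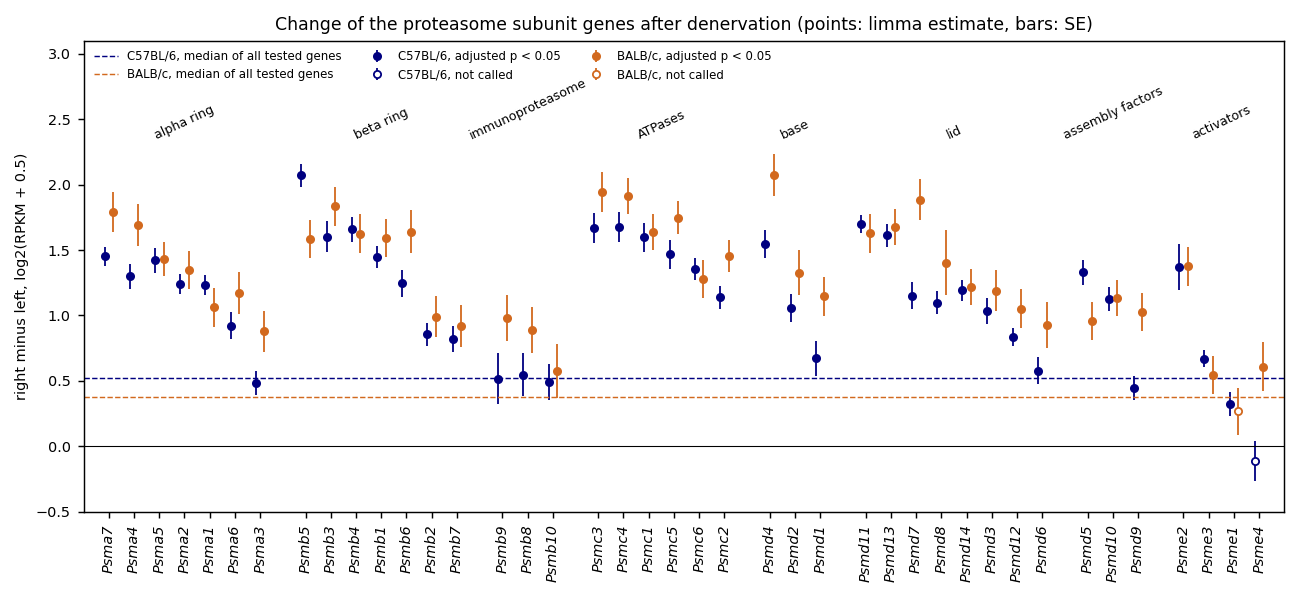
Change from left to right leg of the 41 tested proteasome genes, in log2(RPKM + 0.5), with its standard error, grouped by subcomplex (blue C57BL/6, orange BALB/c; open points were not called; dashed lines give the median of all tested genes). Most members lie between 0.5 and 2 and above both dashed lines, while Psme1 lies below them in both strains and Psme4 lies below 0 in C57BL/6.

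The 31 tested genes of the alpha rings, beta rings, ATPases, base and lid were all called higher in both strains, with medians of 1.25 in C57BL/6 and 1.45 in BALB/c. Their changes had a standard deviation over genes of 0.372 and 0.338 log2 units, against 0.906 and 0.88 over all tested genes. All 31 averaged at least 1 RPKM, while tested genes start at 0.1 RPKM. A narrow range was not particular to them: the 10 COP9 signalosome genes, described below, ran from 0.30 to 1.09 and from 0.27 to 1.32. The 31 ran from 0.49 to 2.07 in C57BL/6 and from 0.88 to 2.07 in BALB/c. Levels of the 31 genes spanned a wider range than their changes. The left means ran from 15.2 RPKM (Psma5) to 136 RPKM (Psmd8) in C57BL/6 and from 13.8 RPKM (Psma3) to 99.6 RPKM (Psmd4) in BALB/c. On the right, the lowest mean was that of Psma3 in both strains (36.1 and 25.6 RPKM). The highest were Psmc3 (343 RPKM) and Psmd4 (308 RPKM) in C57BL/6 and Psmd4 (423 RPKM) and Psmc3 (386 RPKM) in BALB/c. The rank of Psma3 depends on its listed transcript of 2356 bases, against 1206 for Psma5. In C57BL/6 libraries Psma3 held 1050 to 1801 reads and Psma5 held 336 to 1091. Of the 31, 24 in C57BL/6 and 27 in BALB/c were still called higher after rescaling, and none was called lower.

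Promoters of members that rose together are shown where they hold the core of the antioxidant response element, the sequence that NRF1 (Nfe2l1) and NRF2 (Nfe2l2) bind with small Maf proteins; NRF1 is known to drive proteasome genes when proteasome activity is short. RefSeq windows of 250 bases before to 50 after the start site (GRCm38.p6) were found for 36 of the 43 members. The core was searched as TGACNNNGC on both strands and was present in 6 of them (16.7%), against 14% of 27025 genes: Psmb5, Psmb6, Psmc6, Psmd12, Psmd9 and Psme4. The matches that lie before the start site are printed 5′ to 3′ in the direction of the gene, with the matched bases in capitals, which in Psmc6 and Psmd12 read as the reverse complement. Beside each name stands its GRCm38.p6 position.
Psmb5 (chr14:54618018-54618058, minus strand): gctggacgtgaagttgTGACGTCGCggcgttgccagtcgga
Psmb6 (chr11:70525332-70525356, plus strand): ggcggactaaagagagTGACGGAGC
Psmc6 (chr14:45329581-45329621, plus strand): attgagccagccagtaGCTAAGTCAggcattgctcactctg
Psmd12 (chr11:107479278-107479305, plus strand): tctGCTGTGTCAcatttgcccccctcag
Psmd9 (chr5:123228143-123228183, plus strand): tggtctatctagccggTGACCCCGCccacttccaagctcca
The match ended 38 bases before the start site in Psmb5, directly before it in Psmb6 and 22 bases before it in Psmd9, but 218 and 238 bases before it in Psmc6 and Psmd12. Members with the core did not stand higher than those without: the medians were 1.04 (6 genes) and 1.23 (29 genes) in C57BL/6 and 1.17 and 1.35 in BALB/c. The GC box GGGCGG, bound by Sp1-type factors, was found in 22 of 36 members (61.1%) against 38.2% of all genes. The shares of all genes cover every gene with a window, expressed in muscle or not. Medians with and without the GC box were 1.21 (22 genes) and 1.42 (13 genes) in C57BL/6 and 1.25 and 1.45 in BALB/c. The CCAAT box was found in 14 (38.9%) against 41.1%, and the interferon-stimulated element core (GAAA, NN and GAAA in a row) in 4 (11.1%) against 3.99%. Those 4 were Psmb3, Psmd4, Psmd9 and Psme1. Of the immunoproteasome genes, Psmb9 was among the 36 and lacked this core, and whether Psmb8 and Psmb10 had windows is not given here. Such matches describe letters in the window and show no binding.

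The alpha ring genes rose by a median of 1.24 in C57BL/6 and 1.35 in BALB/c, with 7 of 7 tested genes called higher in each strain. Psma7 rose most in both strains. Its left libraries held 51.98, 50.2 and 51.6 RPKM and its right libraries 151, 134 and 138 RPKM in C57BL/6, a change of 1.45 ± 0.07 (SE, adjusted p = 3.6e-06). In BALB/c they held 57.5, 49.6 and 55.1 RPKM and 158, 194 and 217 RPKM, a change of 1.79 ± 0.16 (adjusted p = 9.71e-05). The legs were far apart in both strains, with every right library far above the highest left one. Psma3, an alpha subunit of the same ring, rose least. Its values were 27.02, 23.8 and 25.9 RPKM left and 40.00, 35.2 and 33.03 RPKM right in C57BL/6 (change 0.49 ± 0.092, adjusted p = 0.00207), and after rescaling its change was -0.22 (adjusted p = 0.0762). In BALB/c the values were 16.5, 11.8 and 13.2 RPKM and 23.5, 26.8 and 26.6 RPKM, a change of 0.88 ± 0.15 (adjusted p = 0.00204), or 0.37 after rescaling (adjusted p = 0.178). Right libraries lay above left ones in both strains. Psma8, an alpha subunit known from testis, held 3 reads over the 12 libraries and at most 1 in a library. Its level was at most 0.035 RPKM, under the 0.0994 to 0.106 RPKM that 3 reads would give, a limit of counting error only.

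The standard beta ring genes rose by a median of 1.45 in C57BL/6 and 1.60 in BALB/c, 7 of 7 in each. Psmb5, the chymotrypsin-like active site (mm9 chr14:55232957-55236832, minus strand), had the largest change of all members in C57BL/6. Its left libraries held 45.2, 40.04 and 42.6 RPKM and its right libraries 199.6, 166 and 178 RPKM, means of 42.6 ± 2.59 to 181 ± 17.2 RPKM (SD, n = 3), a ratio of 4.25 and a change of 2.07 ± 0.09 (adjusted p = 2.55e-06). The BALB/c libraries held 16.5, 19.2 and 19.4 RPKM and 48.1, 60.8 and 59.8 RPKM, a ratio of 3.06 and a change of 1.58 ± 0.14 (adjusted p = 0.000113). The legs were apart in each strain. The listed span of the short RNA gene Mir686, on the same strand, overlaps that of Psmb5, and whether their exons share reads was not checked. Psmb6, the caspase-like site, held 106, 105 and 119.9 RPKM left and 299.5, 243 and 247 RPKM right in C57BL/6 (1.25 ± 0.10, adjusted p = 3.36e-05). In BALB/c, Psmb6 held 94.3, 81.9 and 86.8 RPKM and 231, 321 and 279 RPKM (1.64 ± 0.16, adjusted p = 0.000151). Psmb7, the trypsin-like site, rose least of the ring in both strains. Its libraries held 129.8, 129 and 129 RPKM left and 266, 214 and 209 RPKM right in C57BL/6 (0.82 ± 0.10, adjusted p = 0.000232), and 109, 82.98 and 94.5 RPKM and 161, 179.9 and 204 RPKM in BALB/c (0.92 ± 0.16, adjusted p = 0.00199). After rescaling, the Psmb7 change was 0.10 in C57BL/6 and 0.40 in BALB/c and was called in neither (adjusted p = 0.438 and 0.16). Among the beta subunits without an active site, Psmb3 rose most in BALB/c, from 82.2, 70.5 and 76.3 RPKM to 238, 282 and 304 RPKM (1.83 ± 0.15, adjusted p = 7.36e-05). In C57BL/6, Psmb3 rose from 43.5, 38.7 and 46.3 RPKM to 152, 124 and 119 RPKM (1.60 ± 0.12, adjusted p = 1.74e-05). The legs did not overlap for any of the 7 genes in either strain.

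The immunoproteasome genes were far less abundant than the standard subunits they replace and rose less. All 3 were called higher in both strains as deposited, with medians of 0.52 in C57BL/6 and 0.89 in BALB/c, but 0 of 3 in C57BL/6 and 1 of 3 in BALB/c were called higher after rescaling. Psmb8, the counterpart of Psmb5 (mm9 chr17:34335140-34338399, plus strand), held 2.603, 2.503 and 3.89 RPKM left and 4.26, 5.203 and 4.201 RPKM right in C57BL/6, a change of 0.55 ± 0.16 (adjusted p = 0.0179). Its BALB/c libraries held 2.53, 3.68 and 2.92 RPKM and 6.68, 6.12 and 5.25 RPKM, a change of 0.89 ± 0.17 (adjusted p = 0.00359). The right libraries lay above the left ones, in C57BL/6 only narrowly, and the C57BL/6 call was lost without left library 1, left library 2 or right library 2 (adjusted p = 0.0627, 0.0627 and 0.0611). Psmb9, the counterpart of Psmb6 (mm9 chr17:34319044-34324275, minus strand), held 1.19, 1.47 and 2.13 RPKM left and 2.62, 1.91 and 2.901 RPKM right in C57BL/6. Its legs overlapped there, and its change of 0.52 ± 0.19 (adjusted p = 0.0444) was lost without left library 1, left library 2, right library 1 or right library 3 (adjusted p = 0.138, 0.111, 0.113 and 0.139). In BALB/c, Psmb9 held 1.85, 2.63 and 1.75 RPKM and 4.17, 4.697 and 4.74 RPKM without overlap, a change of 0.98 ± 0.17 (adjusted p = 0.00226), or 0.53 after rescaling (adjusted p = 0.0279). Psmb10, the counterpart of Psmb7, held 5.35, 4.95 and 7.17 RPKM left and 7.56, 8.86 and 8.48 RPKM right in C57BL/6 (0.49 ± 0.14, adjusted p = 0.0139). Its values in BALB/c were 5.74, 7.13 and 5.85 RPKM and 8.84, 12.9 and 7.53 RPKM (0.58 ± 0.21, adjusted p = 0.0475), close to each other between legs, and the call was lost without left library 1, left library 3, right library 1 or right library 2 (adjusted p = 0.125, 0.133, 0.0779 and 0.0805). After rescaling, the C57BL/6 changes of Psmb8, Psmb9 and Psmb10 turned to -0.086, -0.054 and -0.18, none of them called (adjusted p = 0.678, 0.838 and 0.295).

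Within a library, the share of an immunoproteasome subunit in the sum with its standard counterpart does not depend on scaling. Psmb8 made up 5.44%, 5.88% and 8.38% of Psmb8 plus Psmb5 in the C57BL/6 left libraries and 2.09%, 3.05% and 2.31% in the right ones. In BALB/c the share was 13.3%, 16.1% and 13.1% on the left and 12.2%, 9.15% and 8.08% on the right. The share was thus lower on the right in both strains without overlap of the legs, from a mean of 6.57% ± 1.58 to 2.48% ± 0.4997 in C57BL/6 and from 14.1% ± 1.70 to 9.81% ± 2.14 in BALB/c (SD, n = 3); with 3 libraries against 3 an exact two-sided permutation test cannot go below 0.10, and none was run. Psmb9 made up 1.10% to 1.74% of Psmb9 plus Psmb6 on the left and 0.780% to 1.16% on the right in C57BL/6, ranges that overlap, and 1.93% to 3.11% against 1.44% to 1.78% in BALB/c, which do not. Psmb10 made up 3.71% to 5.28% of Psmb10 plus Psmb7 on the left and 2.77% to 3.97% on the right in C57BL/6, and 4.98% to 7.92% against 3.56% to 6.71% in BALB/c, with overlap in both strains. Both legs of both strains therefore held mostly transcripts of the standard subunits. The macrophage and monocyte markers named above rose beside these genes, T cell markers summed to at most 2.16 RPKM in any library, and the part of either in the immunoproteasome values was not tested.

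**Figure D2:**
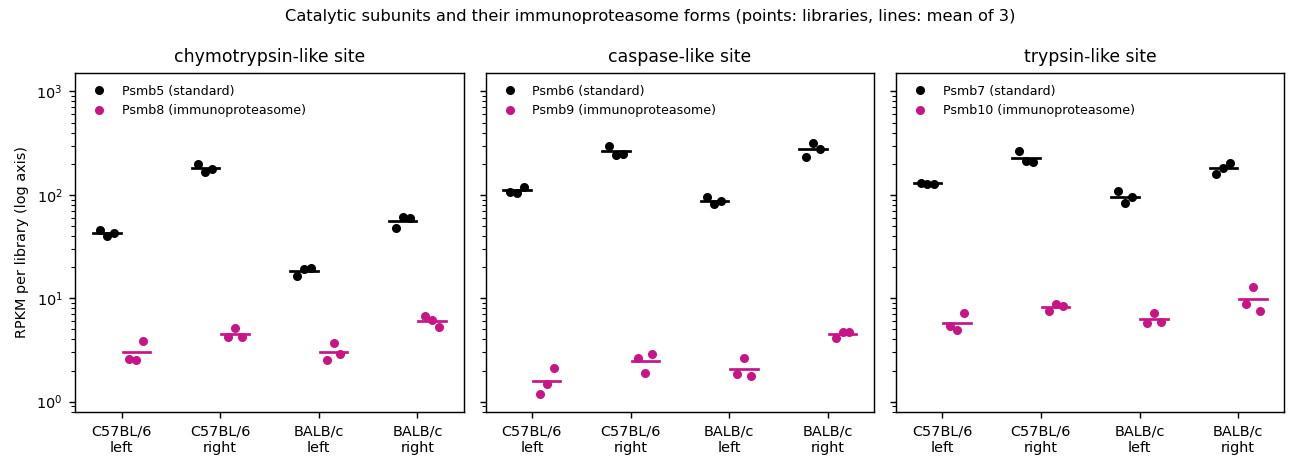
RPKM per library, on a log axis, of the 3 standard catalytic subunits (dark) and their immunoproteasome counterparts (magenta) in each leg and strain; points are libraries and lines the mean of 3. Psmb5, Psmb6 and Psmb7 lie between 16.5 and 321 RPKM and Psmb8, Psmb9 and Psmb10 between 1.19 and 12.9 RPKM, so the forms do not overlap in any group.

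Psmb9 shares its start region head to head with Tap1, which encodes a chain of the peptide transporter of class I antigen presentation, and this stretch is shown because both genes could be read from it. The 225 bases between their start sites (GRCm38.p6 chr17:34187331-34187555, minus strand, in the direction of Psmb9) hold a GC box and a reversed CCAAT box, printed in capitals.
Psmb9 and Tap1: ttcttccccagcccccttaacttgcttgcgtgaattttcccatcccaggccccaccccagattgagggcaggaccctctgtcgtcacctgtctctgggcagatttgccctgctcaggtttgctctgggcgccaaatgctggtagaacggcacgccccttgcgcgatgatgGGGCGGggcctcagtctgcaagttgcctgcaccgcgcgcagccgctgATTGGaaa
Tap1 held 1.57, 1.07 and 1.68 RPKM left and 2.75, 2.11 and 1.83 RPKM right in C57BL/6 (0.49 ± 0.17, adjusted p = 0.0334), against 0.52 for Psmb9. In BALB/c it held 0.807, 1.12 and 0.736 RPKM and 2.66, 2.29 and 2.75 RPKM (1.15 ± 0.17, adjusted p = 0.00088), against 0.98. In C57BL/6, Tap1 thus changed about as Psmb9 did, but so did Psmb8 (0.55), Psmb10 (0.49) and the median gene (0.52). Like that of Psmb9, its C57BL/6 change turned after rescaling (-0.066, adjusted p = 0.769). In BALB/c, Tap1 and Psmb9 were both called higher after rescaling (0.76, adjusted p = 0.0039, and 0.53, adjusted p = 0.0279). The difference between the strains was called for neither as deposited. After rescaling it was called for Tap1 (0.83, adjusted p = 0.0462) but not for Psmb9 (0.59, adjusted p = 0.191). Without left library 1, left library 2, right library 1 or right library 2, the C57BL/6 call of Tap1 was lost (adjusted p = 0.0516, 0.101, 0.1 and 0.0621). Psmb11, the beta subunit of thymic epithelium, held 7 reads over the 12 libraries, 6 of them in 1 C57BL/6 right library. At most 0.074 RPKM, it was not tested, and 3 reads correspond to 0.0367 to 0.0390 RPKM.

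The 6 ATPase genes, which form the unfolding ring of the cap, had the highest median of any subcomplex, 1.53 in C57BL/6 and 1.69 in BALB/c. All 6 were called higher in both strains, as deposited and after rescaling. Psmc4 changed most in C57BL/6, from 61.2, 56.1 and 64.5 RPKM to 228, 179 and 179.9 RPKM (1.68 ± 0.11, adjusted p = 1.33e-05). Psmc2 changed least there, from 72.9, 68.1 and 67.1 RPKM to 171, 144 and 146 RPKM (1.14 ± 0.087, adjusted p = 2.28e-05). Even for Psmc2, the legs stood well apart. In BALB/c, Psmc3 changed most, from 104, 91.1 and 103 RPKM to 339.7, 375 and 443 RPKM (1.94 ± 0.15, adjusted p = 6.86e-05). Psmc6 changed least, from 39.4, 37.7 and 38.4 RPKM to 88.5, 83.7 and 113 RPKM (1.28 ± 0.15, adjusted p = 0.000267). The other ATPase genes lay between these values, and no leg overlapped the other.

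Of the base genes, Psmd4, the ubiquitin receptor of the cap (mm9 chr3:94836613-94846536, minus strand), changed most in both strains and had the largest change of all members in BALB/c. It held 106, 102 and 105 RPKM left and 359.8, 277 and 288 RPKM right in C57BL/6, a change of 1.55 ± 0.11 (adjusted p = 1.5e-05). In BALB/c it held 106, 89.02 and 104 RPKM and 364, 426 and 478 RPKM, a ratio of means of 4.24 and a change of 2.07 ± 0.16 (adjusted p = 6.3e-05). Left levels were alike in both tables, which were normalized separately, and the right ones were higher in BALB/c. Psmd1, a large scaffold subunit, changed least of the 3. Its values were 62.00, 53.98 and 53.7 RPKM and 109, 75.8 and 88.9 RPKM in C57BL/6 (0.67 ± 0.14, adjusted p = 0.00288), with a change of -0.043 after rescaling (adjusted p = 0.815). In BALB/c, Psmd1 held 54.5, 43.8 and 53.00 RPKM and 109, 101 and 127 RPKM (1.15 ± 0.15, adjusted p = 0.000503), or 0.63 after rescaling (adjusted p = 0.025). The listed spans of Psmd1 and of Htr2b, which lies antisense to it, overlap, and strand was not used. Whether their exons overlap, so that reads could be shared, was not checked. Psmd2, the other scaffold subunit, went from 44.4 ± 4.53 to 92.9 ± 9.83 RPKM in C57BL/6 and from 41.6 ± 2.59 to 106 ± 21.7 RPKM in BALB/c (SD, n = 3).

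The 8 lid genes were called higher in both strains, with medians of 1.13 and 1.31. Psmd14, the deubiquitinase that removes the ubiquitin chain, held 23.8, 22.6 and 23.9 RPKM left and 59.7, 52.8 and 50.2 RPKM right in C57BL/6 (1.19 ± 0.082, adjusted p = 1.43e-05). In BALB/c, Psmd14 held 22.1, 20.3 and 22.8 RPKM and 45.2, 51.8 and 57.1 RPKM (1.22 ± 0.13, adjusted p = 0.000235). The enzyme's transcript was among the least abundant of the lid, and its legs did not overlap. Psmd11, a scaffold subunit of the lid, changed most in C57BL/6, from 27.4, 27.6 and 25.9 RPKM to 91.3, 83.9 and 91.4 RPKM (1.70 ± 0.068, adjusted p = 1.93e-06). Its BALB/c values were 24.1, 24.4 and 29.02 RPKM and 78.6, 71.8 and 92.9 RPKM (1.63 ± 0.15, adjusted p = 0.000113). Psmd6, another scaffold subunit, changed least in both strains. It went from 83.4, 77.03 and 82.2 RPKM to 141, 111 and 113 RPKM in C57BL/6 (0.58 ± 0.10, adjusted p = 0.00158), and its change was -0.14 after rescaling (adjusted p = 0.306). In BALB/c it went from 60.6, 43.1 and 61.95 RPKM to 97.8, 97.7 and 119 RPKM (0.93 ± 0.18, adjusted p = 0.00306), or 0.41 after rescaling (adjusted p = 0.163). Lid members were thus not uniform, although the legs of each were apart. Psmd7, the partner of Psmd14 in the lid, is described with the difference between the strains.

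The 3 assembly factors escort base subunits and are not part of the finished proteasome. They were less abundant in each leg than the 31 tested genes of the rings, ATPases, base and lid, at 3.404 to 16.98 RPKM over all libraries, and were called higher in both strains, with medians of 1.13 and 1.03. Psmd5 changed most in C57BL/6, from 6.596, 5.32 and 6.31 RPKM to 16.98, 15.6 and 15.4 RPKM (1.33 ± 0.10, adjusted p = 1.74e-05), and least in BALB/c, from 5.899, 7.57 and 6.93 RPKM to 12.3, 14.7 and 14.02 RPKM (0.96 ± 0.14, adjusted p = 0.00102). Psmd10, also called gankyrin, changed most in BALB/c, from 3.404, 4.26 and 3.94 RPKM to 8.94, 8.85 and 9.41 RPKM (1.14 ± 0.14, adjusted p = 0.00037). Psmd9 changed least in C57BL/6, from 6.86, 6.73 and 7.24 RPKM to 10.7, 9.69 and 8.68 RPKM (0.45 ± 0.091, adjusted p = 0.00301), and its sign turned after rescaling (-0.23, adjusted p = 0.0623). For all 3 genes the right libraries lay above the left ones in both strains.

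The activator genes were the most uneven subcomplex. Psme2 rose in both strains, as deposited and after rescaling, while Psme1, its partner in the same ring, was called higher in C57BL/6 with a small change and not called in BALB/c. Psme2 (mm9 chr14:56206277-56209938, minus strand) held 6.72, 6.19 and 9.89 RPKM left and 23.2, 18.3 and 19.1 RPKM right in C57BL/6, a change of 1.37 ± 0.18 (adjusted p = 0.000277), or 0.68 after rescaling (adjusted p = 0.0137). Psme2 held in BALB/c 11.04, 13.3 and 12.1 RPKM and 27.2, 34.5 and 35.7 RPKM, a change of 1.37 ± 0.15 (adjusted p = 0.000225), or 0.86 after rescaling (adjusted p = 0.00405). The legs did not overlap, and the near-identical copy Psme2b, listed at 2.42 to 6.15 RPKM (left and right means, C57BL/6) and 3.35 to 8.63 RPKM (BALB/c), could share reads with it. Psme1 (mm9 chr14:56197331-56200364, plus strand) held 28.6, 28.00 and 34.04 RPKM left and 36.5, 39.1 and 37.9 RPKM right in C57BL/6. Its change of 0.32 ± 0.089 (adjusted p = 0.0128) lay under that of the median gene, was called lower after rescaling (-0.39, adjusted p = 0.00772) and was lost without left library 2 (adjusted p = 0.0517). In BALB/c, Psme1 held 46.2, 58.5 and 42.2 RPKM and 54.1, 71.5 and 51.6 RPKM, with overlap of the legs and a change of 0.27 ± 0.18 (adjusted p = 0.253), which turned to -0.25 after rescaling (adjusted p = 0.353). The listed span of Emc9, antisense to Psme1, overlaps that of Psme1, and whether their exons share reads was not checked. Within a library, Psme2 made up 19.0%, 18.1% and 22.5% of Psme2 plus Psme1 on the left and 38.9%, 31.9% and 33.4% on the right in C57BL/6. In BALB/c the share was 19.3%, 18.5% and 22.4% on the left and 33.5%, 32.5% and 40.9% on the right. The share thus shifted towards Psme2 in both strains without overlap of the legs, whatever the scaling.

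Psme3, the activator of the nuclear proteasome, held 19.6, 19.5 and 19.6 RPKM left and 32.2, 32.1 and 29.9 RPKM right in C57BL/6 (0.67 ± 0.064, adjusted p = 6.21e-05). In BALB/c it held 19.3, 18.2 and 19.2 RPKM and 29.1, 23.4 and 31.5 RPKM (0.55 ± 0.14, adjusted p = 0.0135). Psme3 moved about as the median gene did: after rescaling its change was -0.038 and 0.032 (adjusted p = 0.64 and 0.869), and the BALB/c call as deposited was lost without right library 3 (adjusted p = 0.0554). Psme4 (mm9 chr11:30671775-30780361, plus strand) encodes PA200, a large single-chain activator that does not need ubiquitin. Its libraries held 44.4, 38.1 and 33.3 RPKM left and 43.4, 31.1 and 32.98 RPKM right in C57BL/6, overlapping, with a change of -0.11 ± 0.15 (adjusted p = 0.524), and after rescaling it was called lower (-0.82, adjusted p = 0.00291). In BALB/c, Psme4 held 31.04, 23.6 and 27.7 RPKM and 48.95, 32.5 and 46.1 RPKM, with every right library above the left ones and a change of 0.61 ± 0.19 (adjusted p = 0.0267). That call was lost without left library 2, left library 3, right library 1 or right library 3 (adjusted p = 0.0795, 0.07001, 0.087 and 0.0895), and after rescaling the change was 0.091 (adjusted p = 0.731).

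**Figure D3:**
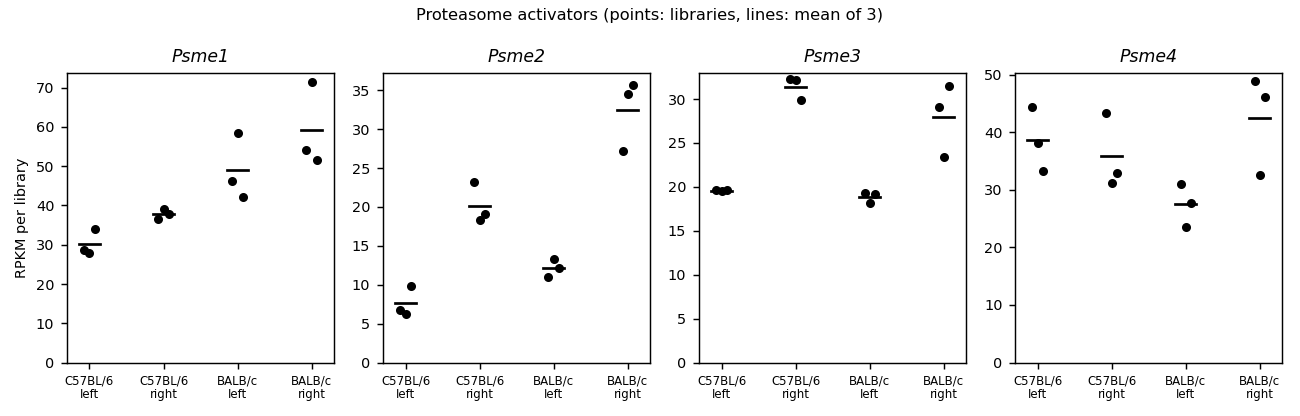
RPKM per library of the 4 activator genes in each leg and strain; points are libraries and lines the mean of 3. Psme2 goes from 7.60 to 20.2 RPKM in C57BL/6 and from 12.2 to 32.5 RPKM in BALB/c, while the legs of Psme4 overlap in C57BL/6 and those of Psme1 in BALB/c.

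Whether the strains differed in their response was asked by subtracting the C57BL/6 change from that in BALB/c, fitted over all 12 libraries. One member was called, Psmd7, with a larger rise in BALB/c; of 14165 genes tested, 1.76% were called with a larger and 4.33% with a smaller change in BALB/c (3.72% and 3.52% after rescaling, when Psmd7 and Psmd9 were called). Psmd7 (mm9 chr8:110104280-110112382, minus strand) pairs with Psmd14 to form the deubiquitinase of the lid. Its C57BL/6 libraries held 71.00, 66.1 and 73.1 RPKM left and 181, 143 and 147 RPKM right, a change of 1.15 ± 0.10 (adjusted p = 4.66e-05). Its BALB/c libraries held 74.1, 66.6 and 76.02 RPKM left and 239.5, 249.8 and 321 RPKM right, a change of 1.89 ± 0.16 (adjusted p = 8.24e-05). Left levels overlapped between these separately normalized tables, and every BALB/c right library was above every C57BL/6 right library. The difference was 0.73 ± 0.18 (SE, adjusted p = 0.0385), and 0.93 after rescaling (adjusted p = 0.0241). The call was lost when any of 8 of the 12 libraries was left out (adjusted p = 0.0615 to 0.102): C57BL/6 left 1, left 2, left 3, right 2 or right 3, or BALB/c left 2, left 3 or right 3. Over 21 alternatives its adjusted p ran from 0.0241 to 0.134, with 11 of them calling it.

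Another 8 members had an unadjusted p under 0.05 for the difference without passing the adjustment: Psmb5 (-0.49, adjusted p = 0.1) and Psmd5 (-0.37, adjusted p = 0.2) with a smaller change in BALB/c, and Psma3, Psmc2, Psmd1, Psmd4, Psmd9 and Psme4 with a larger one. The share of all tested genes under this unadjusted threshold is not given, so the count is not a result about the members. Psmd9 was nearest to the threshold. It held 5.09, 4.97 and 5.21 RPKM left and 9.21, 11.5 and 12.2 RPKM right in BALB/c (1.03 ± 0.15, adjusted p = 0.00077), and differed from C57BL/6 by 0.58 ± 0.16 (adjusted p = 0.0584), or by 0.77 after rescaling (adjusted p = 0.0321). For Psme4 the difference was 0.72 ± 0.25 (adjusted p = 0.112), and without BALB/c right library 2, one of the libraries high in erythroid markers, 0.90 (adjusted p = 0.0336). For the other 32 of 41 members, a difference was not detectable with 3 libraries a group, which does not show that they responded alike.

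**Figure D4:**
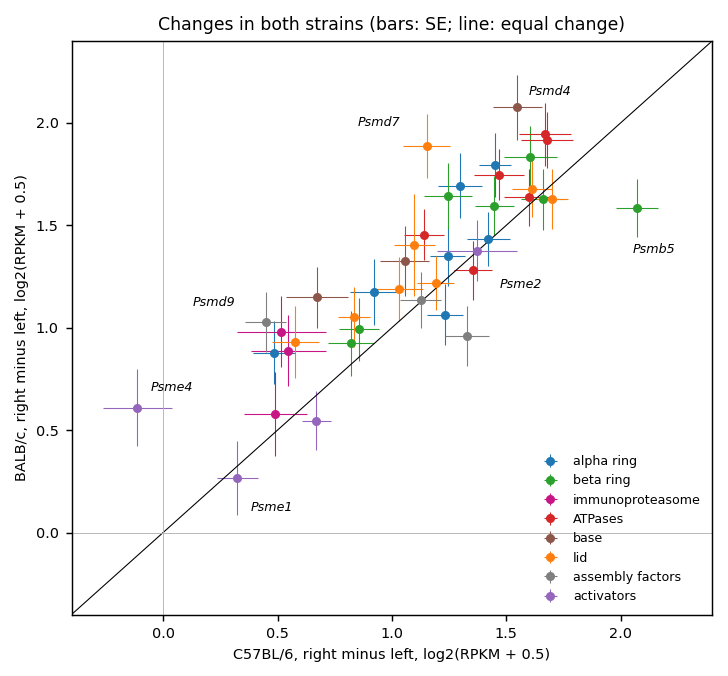
Change from left to right leg in C57BL/6 (horizontal) and BALB/c (vertical) of the 41 tested members, in log2(RPKM + 0.5), coloured by subcomplex with standard errors; the line marks equal change. Of the 41 members, 33 lie above the line, among them Psmd7 (1.15 and 1.89), the member called for the difference, and Psmb5 lies below it (2.07 and 1.58).

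Over the 41 members, the changes in the strains went with each other, with r = 0.836 and rho = 0.845, values close to those over all 14165 genes tested in both (0.831 and 0.784). These are descriptions over genes, which are not independent and share the 12 libraries. The change was larger in BALB/c for 33 of 41 members (80.5%), whereas it was larger in BALB/c for 36.4% of all genes, whose median difference was -0.14.

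The other genes of the pathway are read against all tested genes, of which 63.6% were called higher in C57BL/6 and 42.5% in BALB/c, with median changes of 0.52 and 0.38. After rescaling, 28.2% and 21.8% were called higher and 26.6% and 19.2% lower. The chaperones that assemble the core rose with it: 5 of 5 tested were called higher in both strains, with medians of 1.011 and 1.25, and 3 and 5 were called higher after rescaling. Pomp, which matures the beta rings, went from 80.4 ± 3.104 to 235 ± 24.6 RPKM in C57BL/6 (1.54 ± 0.09, adjusted p = 7.57e-06). In BALB/c, Pomp went from 59.8 ± 9.74 to 196 ± 29.97 RPKM (1.71 ± 0.18, adjusted p = 0.000189). Of the list of ubiquitin receptors, deubiquitinases and the small lid subunit, 4 of 4 were called higher in both strains as deposited, and 2 in C57BL/6 and 1 in BALB/c after rescaling. Adrm1, the receptor on the base, rose most, by 1.17 ± 0.082 in C57BL/6 (adjusted p = 1.53e-05) and 1.57 ± 0.13 in BALB/c (adjusted p = 9.15e-05). Usp14, a deubiquitinase that docks on the base, went from 7.15 ± 0.298 to 14.7 ± 1.34 RPKM (0.99 ± 0.086, adjusted p = 4.19e-05) in C57BL/6, and from 5.26 ± 0.438 to 10.3 ± 1.46 RPKM (0.91 ± 0.15, adjusted p = 0.00159) in BALB/c; the tables list different Usp14 transcripts. The BALB/c call of Usp14 was lost after rescaling (0.42, adjusted p = 0.0603). Of 8 proteins that bind the proteasome, 5 were called higher in each strain and 1 lower in C57BL/6, a share near that of all genes in C57BL/6. After rescaling, 2 were higher and 3 lower in C57BL/6, and 1 was higher and 1 lower in BALB/c. Zfand2a, a heat- and arsenite-inducible cofactor, rose most (1.44 ± 0.10, adjusted p = 1.42e-05, and 0.95 ± 0.21, adjusted p = 0.00564; different transcripts are listed). Zfand5, which stimulates the proteasome and is known from atrophying muscle, fell in C57BL/6 from 31.6, 30.4 and 28.2 RPKM to 21.4, 20.5 and 21.2 RPKM (-0.51 ± 0.069, adjusted p = 0.000392). In BALB/c the Zfand5 values were 15.7, 13.1 and 16.9 RPKM and 17.7, 12.6 and 16.1 RPKM (0.013 ± 0.17, adjusted p = 0.956). After rescaling, Zfand5 was called lower in both strains (-1.21, adjusted p = 1.11e-05, and -0.50, adjusted p = 0.0481). Its difference between the strains was not called as deposited (0.52 ± 0.18, adjusted p = 0.11) and was called after rescaling (0.72, adjusted p = 0.0415).

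Genes that bring ubiquitinated substrates to the proteasome rose less evenly. Of 4 shuttle factors, 3 were called higher in C57BL/6 and 1 in BALB/c, with medians of 0.57 and 0.24, close to the median gene in C57BL/6 and below it in BALB/c. After rescaling, 1 was higher and 1 lower in C57BL/6 and 0 were called in BALB/c, with medians of -0.12 and -0.26. Rad23b, which carries ubiquitinated proteins to the cap, led in both strains (1.06 ± 0.092, adjusted p = 4.18e-05, and 0.69 ± 0.20, adjusted p = 0.0203). Its BALB/c call was lost without left library 1, left library 3, right library 1 or right library 3 (adjusted p = 0.0636, 0.0583, 0.0675 and 0.0742), and after median-of-ratios rescaling (0.17, adjusted p = 0.434). Of 5 genes of the p97 segregase, which extracts proteins from complexes, 4 were called higher in C57BL/6 and 5 in BALB/c, with medians of 1.04 and 1.11. After rescaling, 3 were higher and 1 lower in C57BL/6, and 3 higher and 0 lower in BALB/c. Its cofactor Nsfl1c rose most in both (1.54 ± 0.083, adjusted p = 5.31e-06, and 1.64 ± 0.14, adjusted p = 8.58e-05). Of 5 genes of ubiquitin and its activating enzymes, 5 were called higher in C57BL/6 and 4 in BALB/c, with medians of 1.05 and 0.79; after rescaling, 3 and 2 were called higher. Ubb, a polyubiquitin gene, went from 291 ± 20.3 to 439 ± 43.7 RPKM (0.59 ± 0.10, adjusted p = 0.00131), a change that turned to -0.13 after rescaling (adjusted p = 0.355), and in BALB/c from 348 ± 11.5 to 593 ± 16.2 RPKM (0.77 ± 0.15, adjusted p = 0.00309), a call that was lost after rescaling (0.24, adjusted p = 0.359). Rps27a, a fusion of ubiquitin and a ribosomal protein for which near-identical copies can share reads, rose most of the list in both strains (1.97 ± 0.13, adjusted p = 1.16e-05, and 2.06 ± 0.17, adjusted p = 8.58e-05).

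The route of NRF1 and NRF2 was mixed, with 4 of 8 genes called higher and 1 lower in C57BL/6 and 3 higher and 0 lower in BALB/c, shares below those of all genes called higher. After rescaling, 2 were higher and 4 lower in C57BL/6, and 1 was higher and 0 lower in BALB/c. Nfe2l1 held 97.4, 101 and 89.7 RPKM left and 179, 132 and 146 RPKM right in C57BL/6 (0.65 ± 0.12, adjusted p = 0.0017), a change that turned to -0.066 after rescaling (adjusted p = 0.68). In BALB/c, Nfe2l1 held 97.2, 118 and 106 RPKM and 236, 162 and 267 RPKM (1.02 ± 0.20, adjusted p = 0.00398), or 0.49 after rescaling (adjusted p = 0.0582). Nfe2l1 was thus higher on the right by about the amount of the median gene in C57BL/6 and by more in BALB/c. Nfe2l2 went from 14.4 ± 1.74 to 37.8 ± 4.36 RPKM in C57BL/6 (1.36 ± 0.12, adjusted p = 4.07e-05) and from 21.2 ± 3.62 to 37.6 ± 3.58 RPKM in BALB/c (0.82 ± 0.16, adjusted p = 0.00303). The BALB/c call of Nfe2l2 was lost after rescaling (0.31, adjusted p = 0.0962). Ddi2, the protease that cleaves NRF1 into its active form, fell in C57BL/6 from 17.6, 18.2 and 15.3 RPKM to 10.8, 10.3 and 9.79 RPKM (-0.70 ± 0.087, adjusted p = 0.00024). The BALB/c values of Ddi2 were 13.4, 11.1 and 10.8 RPKM and 15.7, 6.39 and 10.9 RPKM, spread too widely for a call (-0.17 ± 0.29, adjusted p = 0.65). Mafk, a small Maf partner, rose most in both strains (1.48 ± 0.23, adjusted p = 0.000704, and 1.39 ± 0.31, adjusted p = 0.00716).

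Genes of class I antigen processing, to which the immunoproteasome supplies peptides, were called higher for 7 of 10 in C57BL/6 and 5 of 10 in BALB/c, with medians of 0.63 and 0.46, counts and medians near those of all tested genes. Tap2, the partner of Tap1, led in C57BL/6 (1.07 ± 0.087, adjusted p = 2.84e-05). After rescaling, 1 was called higher and 2 lower in each strain. The COP9 signalosome, whose subunits resemble those of the lid and which acts on cullin ubiquitin ligases, was set beside the lid. Of its 10 genes, 10 were called higher in C57BL/6 and 9 in BALB/c, with medians of 0.66 and 0.79 against 1.13 and 1.31 for the lid. Cops6 rose most in C57BL/6 (1.09 ± 0.10, adjusted p = 5.85e-05) and Cops9 in BALB/c (1.32 ± 0.19, adjusted p = 0.000768). After rescaling, 3 COP9 genes were called higher and 4 lower in C57BL/6 and 3 higher and 0 lower in BALB/c, where 6 and 7 of the 8 lid genes were higher and 0 lower.

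**Figure D5:**
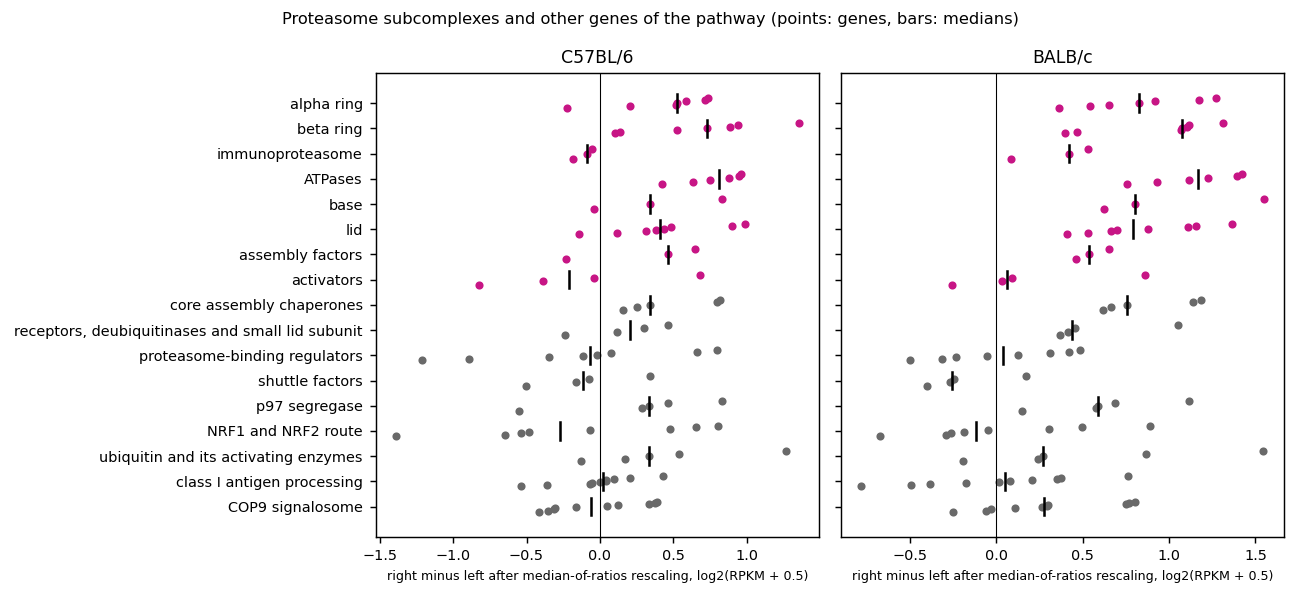
Change from left to right leg after median-of-ratios rescaling, in log2(RPKM + 0.5), of the genes of each proteasome subcomplex (magenta) and of the other lists of the pathway (grey), in C57BL/6 and BALB/c; points are genes and bars medians. The ATPases have the highest subcomplex medians (0.81 and 1.17), the activators lie near 0 (-0.21 and 0.06), and the COP9 signalosome lies at -0.06 and 0.28.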

How the data were processed

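RNA-seq libraries of gastrocnemius (4 groups of strain and leg, 3 libraries each) were grouped from the labels. The authors deposited RPKM values, 1 table per strain, normalized separately; HOMER made them, per the file headers, from exonic reads on either strand, with 1 transcript for each gene from an mm9 annotation; positions are given in mm9. The column names say FPKM. HISAT2, HOMER, DESeq2, GRCm38 and mm10 are named in the submitters' processing notes; versions and the alignment build are not given in the sources used here. Descriptions in the labels gave each column's sample, since the last BALB/c column of each leg carries a code that differs from its title number. Multiplying by transcript length and scaling total gave whole reads within 0.1 read for 99.6% to 99.8% of values; 14826932 to 17323390 reads per library lay in listed genes, and counting limits cover counting error only.

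Genes averaging 0.1 RPKM or more were tested on log2(RPKM + 0.5), a scale that understates changes of low genes, with limma 3.58.1 in R 4.3.3 (trend, two-sided, Benjamini-Hochberg over all tested genes, called under 0.05); the difference between the strains was a contrast of 4 group means. The fit was tested on simulated data, with 50 genes changed per fold size in each strain, 1 fixed spread and no shift of the median gene. In the real data, 63.6% (C57BL/6) and 42.5% (BALB/c) of tested genes were called higher. The recovery rates therefore describe that simulated setting and do not carry over to the calls made here. It recovered 12% (C57BL/6) and 10% (BALB/c) of 1.5-fold changes between legs, and 74% and 68% of 2-fold changes. For the difference between the strains it recovered 5.05% of 1.5-fold and 47% of 2-fold differences. Alternatives were pseudocounts of 0.1 and 1, no filter, a filter of 1 RPKM, median-of-ratios rescaling, a common sum (TPM), no trend, limma-voom on recovered reads, a replicate block and leaving out each library. Members and gene lists were chosen with earlier results of these data known. Library values are given for catalytic subunits, activators, Psmd11, Psmd14 and the largest and smallest change per subcomplex and strain; of other lists, Nfe2l1, Nfe2l2, Pomp, Usp14, Ubb and the largest called gene per direction are named. Tap1 in C57BL/6 was added as the neighbour of Psmb9. Of the list of assembly chaperones, Paaf1 was not matched by symbol; 2 other genes of these lists are not reported here. RefSeq promoter windows of GRCm38.p6 were matched by symbol.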

Additional observations from a re-analysis of the deposited data

Results flagged for a closer look

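A difference between the strains in the change from left to right leg was tested by limma as a contrast over all 12 libraries. It was called for 1 of 41 members and 2 of 59 other genes of the pathway, each with a larger change in BALB/c. Of all 14165 genes tested, 1.76% were called with a larger and 4.33% with a smaller change in BALB/c. The count is therefore not read as a result about these genes. Psmd7, of the proteasome lid, differed by 0.73 on the log2(RPKM + 0.5) scale (BALB/c minus C57BL/6, adjusted p = 0.0385). Ecpas, a proteasome-binding scaffold also known as Ecm29, differed by 0.65 (adjusted p = 0.024): it held 25.4, 22.7 and 21.1 RPKM left and 21.2, 19.2 and 19.99 RPKM right in C57BL/6, and 18.3, 15.1 and 16.1 RPKM and 21.97, 22.2 and 24.3 RPKM in BALB/c. Its change of 0.46 ± 0.13 in BALB/c turned to -0.051 after median-of-ratios rescaling. In C57BL/6 the change of Ecpas was -0.19 (adjusted p = 0.0827), and after rescaling it was called lower (-0.89, adjusted p = 0.000138). The difference between the strains for Ecpas was 0.84 after rescaling (adjusted p = 0.0214). Faf1, a p97 cofactor, differed by 0.51 (adjusted p = 0.047): it held 15.96, 14.1 and 14.8 RPKM left and 18.1, 15.6 and 16.2 RPKM right in C57BL/6, and 12.6, 10.98 and 11.05 RPKM and 19.1, 17.7 and 18.6 RPKM in BALB/c. Over the 21 alternatives Ecpas was called under 13 (adjusted p = 0.0146 to 0.146) and Faf1 under 8 (adjusted p = 0.0292 to 0.283). The calls of Ecpas were lost without C57BL/6 left 1, left 2, right 2 or right 3 or BALB/c left 2, left 3 or right 3, and those of Faf1 without any 1 of 9 libraries.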

How the results depend on the processing

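As deposited, 40 of 41 members were higher in each strain. Leaving out 1 library at a time gave 37 to 40 in C57BL/6 and 38 to 39 in BALB/c, with 0 lower in each. Median-of-ratios rescaling gave 2 lower in C57BL/6. For the difference between the strains, 1 member was called with a larger change in BALB/c; this count was 0 without a filter and with a common sum (TPM), 2 after median-of-ratios rescaling, and 0 to 2 when leaving out 1 library at a time. The common sum gave 1 with a smaller change in BALB/c, Psmb5 (-0.70, adjusted p = 0.0381). With the replicate number as a block the count was 2, Psme4 being added (adjusted p = 0.0353), and the counts of 40 within each strain stayed at 40. The block ended the call of Faf1 for the difference between the strains (adjusted p = 0.0694). Whether same-numbered legs came from the same mouse is not given in the labels. The deviations of same-numbered libraries correlated positively in each pair (r = 0.0335 to 0.117 in C57BL/6 and 0.0301 to 0.202 in BALB/c), but not above 0.1 in every pair, and those of differently numbered libraries ran from -0.16 to 0.089; not every library correlated best with its own number. The numbers were therefore not used as pairs, and pairing remains unknown. Among the members and the genes named singly, median-of-ratios rescaling turned the sign in C57BL/6 of Psma3 (-0.22), Psmb8 (-0.086), Psmb9 (-0.054), Psmb10 (-0.18), Psmd1 (-0.043), Psmd6 (-0.14), Psmd9 (-0.23), Psme1 (-0.39), Psme3 (-0.038), Faf1 (-0.55), Nfe2l1 (-0.066), Tap1 (-0.066) and Ubb (-0.13), and in BALB/c of Psme1 (-0.25), Ecpas (-0.051) and Zfand5 (-0.50). Zfand5 was then called lower in BALB/c (adjusted p = 0.0481). Over all 59 tested genes of the other lists it turned the sign of 22 in C57BL/6 and 17 in BALB/c, of which 14 and 3 had been called higher as deposited; Cops2, Cops4, Cops7a and Cops8 went from called higher to called lower in C57BL/6. The cause was not tested, except that the rescaling subtracts the shift of the median gene by construction. The common sum (TPM) ended the BALB/c calls of Psmb10 (adjusted p = 0.212), Psme3 (0.237), Psme4 (0.220), Rad23b (0.187), Ecpas (0.294), Faf1 (0.0801), Nfe2l2 (0.0556) and Zfand2a (0.0542), and limma-voom on recovered reads those of Psmb10 in BALB/c (0.0532) and Psmb9 in C57BL/6 (0.0682). Without a filter, 37 and 38 of the members were called higher, with more genes tested. The limits are 3 libraries a group, tables normalized separately, and reads that cannot be separated by strand; Psmb9 rested on 18 reads in its shallowest library.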

Other observations

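Left-leg levels of the members in the 2 tables, which were normalized separately and are set side by side without a test, were mostly alike. The ratio of the BALB/c to the C57BL/6 left mean had a median of 0.954 over 41 members. Psmb5 had the lowest ratio, 0.431, with 42.6 ± 2.59 RPKM in C57BL/6 and 18.4 ± 1.62 RPKM in BALB/c (SD, n = 3). Psma3 followed at 0.540, with 25.6 ± 1.65 and 13.8 ± 2.405 RPKM. At the other end stood Psmb3 at 1.78, with 42.8 ± 3.85 and 76.3 ± 5.84 RPKM, and Psme1 at 1.62, with 30.2 ± 3.32 and 48.98 ± 8.51 RPKM. The same transcript is listed in both tables for each of these genes.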
